A study of Mus musculus with 2 samples.

Results

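The genes described are the homeobox genes of regional identity: every gene whose symbol belongs to the Hox, Lhx, Pax, Nkx, Dlx, Emx, Otx, Irx, Meis, Pbx, Cux, Zeb or Zfhx families or to the sine oculis group. Members were taken by symbol alone. The rule uses no measured value, but it was chosen with earlier results of these data known. The rule found 106 members among 55536 annotated genes, and all 106 are protein-coding. The material was total RNA from hippocampal tissue of male B6CASTF1/J mice aged 25 days, the F1 hybrid of the inbred strains C57BL/6J and CAST/EiJ, with no treatment given in the labels. There were 2 libraries, biological replicates 1 and 2 of 1 group, each made from 300 ng. Each replicate had its own tissue sample in the labels, although both carried the same donor entry, so the SDs below measure the spread between these samples and no comparison between groups can be made.

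The homeodomain is a DNA-binding fold of helices whose last helix, the recognition helix, lies in the major groove and contacts bases. In the embryo, Hox genes are switched on in nested domains along the hindbrain and spinal cord, while Emx, Otx, Lhx and Pax genes pattern the forebrain in front of them. Lhx2 is a selector gene of the cerebral cortex and, with Emx2, is needed for the hippocampus to form. Pbx and Meis proteins, of the TALE class, bind DNA together with other homeodomain proteins, and Dlx, Lhx6 and Nkx2-1 direct the inhibitory interneurons that migrate in from the ventral forebrain.

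Replicate 1 had a depth of 30635891 expected counts over genes, and replicate 2 of 35713471. Markers of hippocampal pyramidal and granule neurons were at 1 TPM or more for 8 of 8 genes, among them Slc17a7 at 636.45 TPM in replicate 1 and 691.82 TPM in replicate 2. TPM is a level per transcript length, scaled to the same total in each library. Interneuron markers reached that level for 7 of 7 genes, oligodendrocyte markers for 6 of 6, astrocyte markers for 4 of 4 and microglial markers for 3 of 3. Markers of midbrain, hindbrain and spinal cord reached it for 0 of 8 genes, with Slc6a4 at 0 counts, and those of pituitary for 0 of 3. Thalamic and habenular markers did so for 7 of 8 genes, with a median of 7.97 TPM, and striatal markers for 6 of 6, with a median of 1.64 TPM, against a median of 65.3 TPM over the hippocampal list. Ependymal markers reached 1 TPM for 3 of 4 genes, vascular and meningeal markers for 6 of 8 and hypothalamic markers for 1 of 6. In tissue, fewer cells of a type and less RNA per cell cannot be told apart.

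Most members share a sequence of the homeodomain. Homeobox genes are classed by this domain, so its presence in them follows from the choice of families. A search of all annotated coding sequences for the residue pattern tryptophan, phenylalanine, any residue, asparagine, any residue, arginine, the core of the recognition helix, found it in 99 of 106 members (93.4%). Among the other protein-coding genes it was present in 125 of 21845 (0.572%). The 7 members without it were Pax1, Pax2, Pax5, Pax8 and Pax9, whose DNA contacts are made mainly by a paired domain, and Zeb1 and Zeb2, zinc-finger repressors with a diverged homeodomain. Below are 36 coding bases around the core in detected LIM, Emx, Dlx and Pbx members, shown to compare paralogs and families, from GENCODE M21 transcripts on mm10. The capitals mark the codons of the fixed residues.
Lhx2: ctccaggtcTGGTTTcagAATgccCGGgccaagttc
Lhx9: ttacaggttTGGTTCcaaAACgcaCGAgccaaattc
Emx1: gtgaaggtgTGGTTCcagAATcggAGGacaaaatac
Emx2: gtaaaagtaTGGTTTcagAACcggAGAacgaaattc
Dlx1: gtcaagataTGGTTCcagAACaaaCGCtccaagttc
Pbx2: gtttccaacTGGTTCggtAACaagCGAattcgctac
Emx1 and Emx2 have 28 of 36 bases in common, and Lhx2 and Lhx9 share 27. Between families the stretch was less alike for Lhx2 and Emx2, with 22 shared bases. Lhx2 lies at chr2:38339281-38369733 and Emx2 at chr19:59458372-59465357, both on the plus strand.

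A member was called detected at a mean of at least 1 TPM over the replicates. By that rule 28 of 106 members (26.4%) were detected, against 58.9% of the 22028 protein-coding genes and 27.4% of all annotated genes. Outside the Hox clusters the share was 28 of 67 (41.8%). By RSEM, 51 members (48.1%) had 0 counts in both libraries, against 21% of protein-coding genes. The kallisto table gave counts to 19 of the 51, so that 30.2% of members and 15.5% of protein-coding genes were at 0 in both tables. Unless kallisto is named, the values given are those of RSEM. Detection went by family. Both Emx, both Cux and both Zeb genes, all 3 Meis, all 4 Pbx and all 3 Zfhx genes were detected, as were 4 of 6 Dlx and 3 of 8 Lhx genes. In contrast, 1 of 2 Otx, 2 of 14 Nkx, 1 of the 6 sine oculis, 1 of 9 Pax, 0 of 6 Irx and 0 of 39 Hox genes were.

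**Figure D1:**
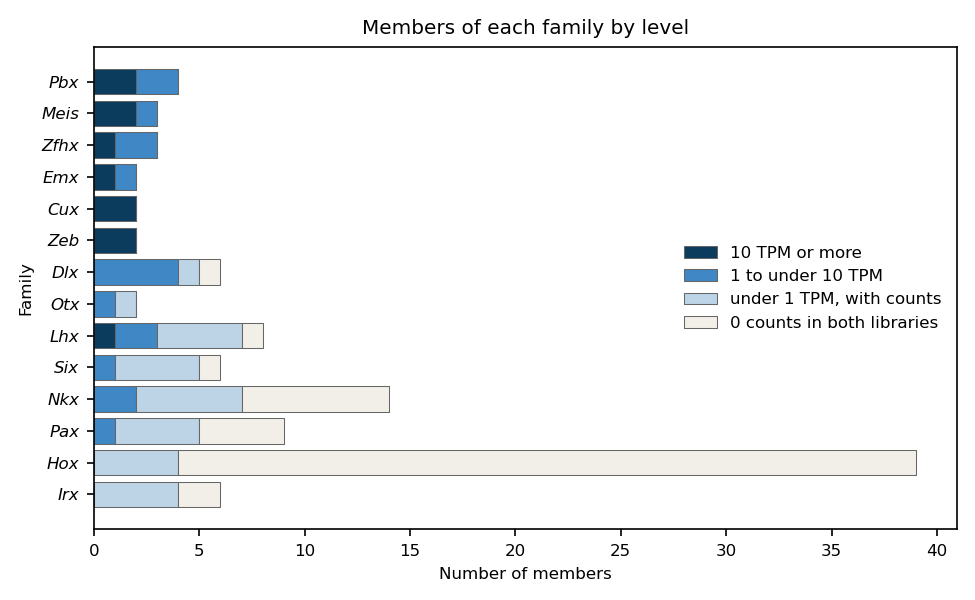
Number of members of each family (rows) at 10 TPM or more, at 1 to under 10 TPM, under 1 TPM with counts, and at 0 counts in both libraries, by mean RSEM TPM of 2 libraries. The Pbx, Meis, Zfhx, Emx, Cux and Zeb families lie wholly in the detected classes, while 35 of 39 Hox genes had 0 RSEM counts.

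The summed level of the members was 521.32 TPM in replicate 1 and 490.59 TPM in replicate 2. Few genes made up most of it. Zeb2 alone held 35.9% ± 2.21 (SD, n = 2) of the sum, and the 5 highest members, with Lhx2, Zeb1 and Pbx2 among them, held 65.8% ± 0.707. The 28 detected members together held 99.5%. In the order of levels, 13 of 27 neighbouring pairs had overlapping replicate ranges and are not ordered by these data, while 14 did not overlap.

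**Figure D2:**
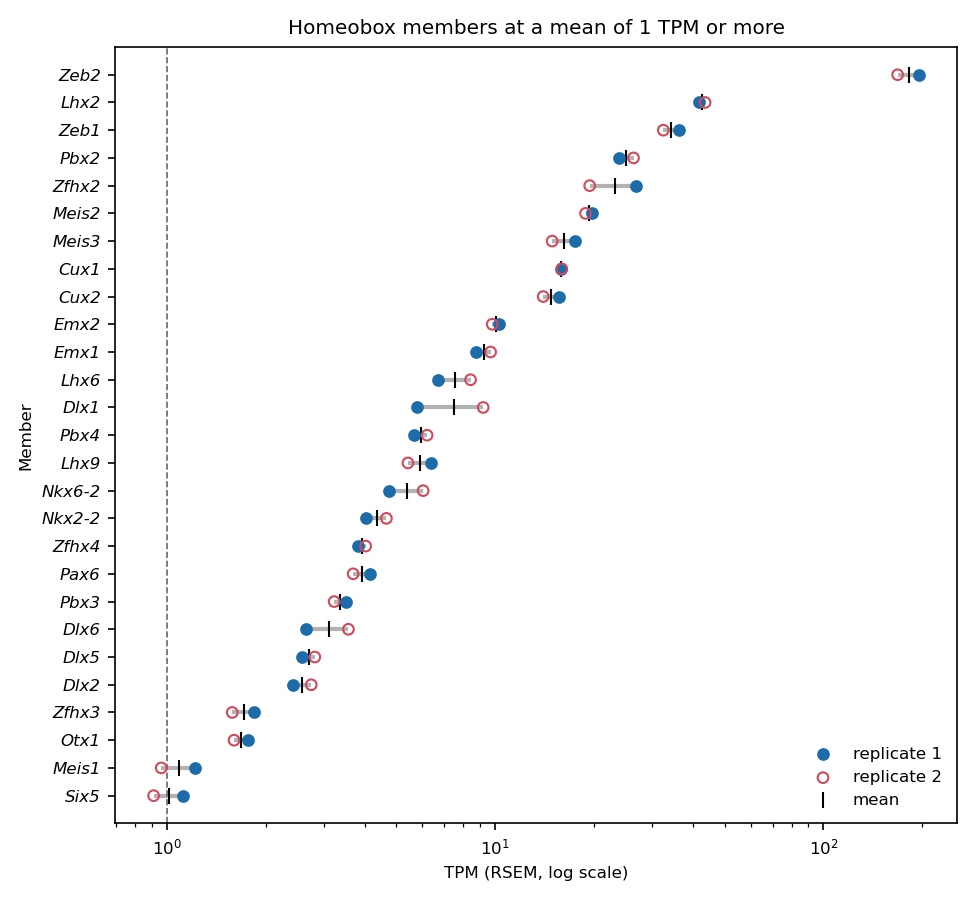
RSEM TPM (log axis) of 27 of the 28 detected members in replicate 1 (filled points) and replicate 2 (open points), with the mean as a tick and 1 TPM as the dashed line. Zeb2 stands apart at 195.17 and 168.31 TPM, and Meis1 and Six5 straddle the line.

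Among the genes that pattern the dorsal forebrain, Lhx2 was the highest, at 41.87 TPM in replicate 1 and 43.59 TPM in replicate 2. Its replicate range overlapped with that of no neighbour in the order. Emx2, needed for the growth of the dentate gyrus, had 10.25 and 9.79 TPM, and Emx1, a marker of the cortical excitatory lineage, had 8.75 and 9.68 TPM. Within a library Emx2 stood at 0.235 ± 0.0143 of the level of Lhx2 (SD, n = 2). The ratio of Emx1 to Emx2 was 0.854 in replicate 1 and 0.989 in replicate 2, and 1.03 in replicate 2 of the kallisto table, so the order of the Emx genes is not settled.

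Lhx9, the close relative of Lhx2 that is prominent in the developing thalamus, had 6.36 and 5.42 TPM, and Lhx2 exceeded it by 7.31 ± 1.03 fold. Pax6, a regulator of cortical progenitors and adult neural stem cells, had 4.14 and 3.69 TPM. Otx1, a gene of cortical neurons, had 1.76 and 1.60 TPM, while its paralog Otx2, an anterior head gene that stays on in choroid plexus, had 0.59 and 0.31 TPM. Otx1 exceeded Otx2 by 4.07 ± 1.54 fold, and Pax6 exceeded Pax2 by 17.8 ± 1.45 fold on RSEM TPM and by 36.9 ± 2.78 fold on kallisto TPM. The choroid plexus marker Ttr was at 47.88 and 61.02 TPM, and 4 of 8 genes of that list reached 1 TPM. Apart from Lhx6, given below with the interneuron genes, the remaining LIM genes were below 1 TPM. Lhx1 and Lhx5, present in Cajal-Retzius cells, rested on 5 and 9 counts and on 2 and 3 counts. The 3 other genes of the Cajal-Retzius list had a mean of 1 TPM or more. Reln was at 22.40 and 19.09 TPM and Ndnf at 9.78 and 9.45 TPM, but Trp73 straddled the threshold at 1.33 and 0.97 TPM. In a list of genes whose products bind or regulate LIM homeodomain complexes, 10 of 10 were at 1 TPM or more, with a median of 48.0 TPM. The list holds Lmo genes, which encode LIM-only proteins, and Rlim beside the Ldb and Ssbp cofactors. Ssbp4, Lmo4 and Lmo3 were highest, at means of 125 ± 5.93, 103 ± 5.95 and 83.5 ± 0.827 TPM (SD, n = 2).

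All 7 Pbx and Meis members of the TALE class were detected, whereas 0 of 6 Irx genes, also of that class, were. Pbx2 had 23.78 and 26.38 TPM. Pbx4 followed at 5.65 and 6.20 TPM and Pbx3 at 3.50 and 3.23 TPM. Meis2, a gene of striatal and other projection neurons, had 19.76 and 18.84 TPM and Meis3 had 17.49 and 14.91 TPM. Meis1 was far lower at 1.22 and 0.96 TPM, 0.0563 ± 0.00763 of the level of Meis2. Of 5 further TALE genes, 3 were at 1 TPM or more: Pknox2 at 17.56 and 12.74 TPM, Pknox1 at 6.74 and 5.58 TPM and Mkx at 7.05 and 5.18 TPM.

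The zinc-finger homeobox genes gave the highest values. Zeb2, a repressor that acts in interneuron migration and in the maturation of oligodendrocytes, had 195.17 TPM in replicate 1 and 168.31 TPM in replicate 2, on 15086 and 15577 counts. Zeb1 had 36.23 and 32.52 TPM, and Zeb2 exceeded it by 5.28 ± 0.149 fold. Of the Zfhx genes, which encode very large proteins with several homeodomains, Zfhx2 had 26.83 and 19.40 TPM. Zfhx4 and Zfhx3 were lower, at 3.82 and 4.03 TPM and at 1.84 and 1.58 TPM. Because the Zfhx transcripts are long, Zfhx2 took the third place by count, with 4346 and 3926, and the sixth by TPM. The Cut-type genes Cux1 and Cux2, known from upper-layer cortical neurons and their dendrites, were near each other at 15.81 and 15.95 TPM and at 15.64 and 14.00 TPM. Their ranges did not overlap, with a ratio of 1.08 ± 0.0908.

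Genes of interneurons and of oligodendrocytes formed the next tier. Lhx6, which marks interneurons born in the medial ganglionic eminence, had 6.68 and 8.41 TPM, and Dlx1 had 5.78 and 9.19 TPM. Dlx6, Dlx5 and Dlx2 lay together, at 2.65 and 3.57, at 2.58 and 2.82, and at 2.42 and 2.75 TPM. Dlx1 exceeded its neighbour Dlx2 by 2.87 ± 0.674 fold. The ranges of Dlx6, Dlx5 and Dlx2 ran into each other in that order, and the ratio of Dlx5 to Dlx6 was 0.882 ± 0.130 on TPM and 1.07 ± 0.00365 on counts. Nkx2-1, which acts upstream of Lhx6 in the embryo, stayed below the threshold with 0.18 and 0.32 TPM, on 9 and 17 counts, and Lhx8 had 0 counts. In the kallisto table Nkx2-1 had 0.896 and 1.17 TPM, on 29.1 and 42.9 counts, a mean of 1.03 TPM that passes the threshold. It was the member whose call differed between the tables. The same threshold is more lenient there, as kallisto TPM had a median of 1.57 times RSEM TPM over 12977 protein-coding genes. Nkx6-2 and Nkx2-2, regulators of oligodendrocyte differentiation, had 4.76 and 6.03 TPM and 4.05 and 4.66 TPM. The other 12 Nkx genes were below 1 TPM by RSEM. Six5 was the only one of the sine oculis genes detected, at 1.12 and 0.91 TPM, while 5 of the 6 Eya and Dach genes, whose products are their cofactors, reached 1 TPM, led by Eya1 at 12.18 and 9.60 TPM and Eya3 at 10.05 TPM in both libraries.

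The members not detected outside the Hox clusters are known mainly from other regions and organs. The 16 with 0 RSEM counts in both libraries were Dlx3, Irx2, Irx4, Lhx8, Nkx1-1, Nkx2-3, Nkx2-4, Nkx2-5, Nkx2-6, Nkx2-9, Nkx3-2, Pax1, Pax3, Pax8, Pax9 and Six6. By kallisto 10 of the 16 were at 0 as well, and the highest mean of the others was 0.102 TPM. The 16 include Nkx2-5 of the heart, Pax8 of thyroid and kidney, Pax3 of the neural crest and dorsal neural tube, and Six6 of eye and pituitary. The highest Irx gene, a family of the midbrain, hindbrain and heart, was Irx1 with 0.18 and 0.14 TPM on 6 and 7 counts. Six4 led the low sine oculis genes at 0.25 and 0.27 TPM. Pax2 and Pax5, which pattern the midbrain-hindbrain border, had 0.22 and 0.22 TPM and 0.09 and 0.24 TPM. Of 90 other homeobox genes measured, 27 were at 1 TPM or more and 20 had 0 counts. The highest were Prox1 of dentate granule cells, at 52.79 and 41.49 TPM, Pou6f1 at 46.85 and 43.98 TPM and Adnp at 43.34 and 37.28 TPM.

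No Hox gene reached 1 TPM in either table, but the tables differed below that level. In the RSEM table the 39 Hox genes together held 7 counts in replicate 1 and 2 counts in replicate 2, and 35 had none. The HoxA cluster, 11 genes on chromosome 6, held 2 counts in replicate 1, 1 each for Hoxa2 and Hoxa7, and none in replicate 2. The HoxB cluster, 10 genes at chr11:96194316-96368256, held 1 count, of Hoxb4 in replicate 1. The 9 HoxC genes at chr15:102921103-103036852 held none in that table. The HoxD cluster, 9 genes at chr2:74668310-74765142, held 4 counts in replicate 1 and 2 in replicate 2, all of them of Hoxd1, the gene at its anterior end. In the kallisto table the same genes held 90.6 counts in replicate 1 and 71.4 in replicate 2, with 22 of 39 at 0. Most of these were of 5 genes with 0 RSEM counts. Hoxb1 had 19 and 16 kallisto counts, or 0.683 and 0.485 TPM, the highest of the clusters. Hoxd11 had 0.411 and 0.243 TPM, Hoxc9 had 0.360 and 0.387, Hoxd9 had 0.366 and 0.284 and Hoxc4 had 0.344 and 0.225 kallisto TPM. In both libraries these 5 lay above the limit that 0 RSEM counts allow, up to 3 counts, which for the 35 genes ran between 0.0504 and 0.197 TPM. That limit covers counting error within the RSEM table and not the choice of table, and the source of the difference was not tested. It is on the scale of RSEM TPM, whereas kallisto TPM ran higher, at a median of 1.57 times over 12977 protein-coding genes. The long non-coding RNAs of the clusters were as low, with 0 of 10 at 1 TPM or more and 8 at 0 RSEM counts, among them Hotair, Hottip and Hotairm1. Haglr, next to Hoxd1, had 3 and 6 counts. Polycomb and trithorax proteins are known to keep Hox genes off or on, and 15 of 15 such genes were at 1 TPM or more, with a median of 17.1 TPM. Cbx6 led at 179.34 and 176.18 TPM, and Ezh2, the embryonic methyltransferase, was below its paralog Ezh1, at 7.29 and 8.24 TPM against 26.43 and 23.31 TPM.

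At their transcript starts, members with 0 RSEM counts differed in CG content from other genes with none. CpG islands are stretches where CG is not depleted, and many stay unmethylated whether or not the gene is on. In the first 300 transcribed bases of the longest transcript, the ratio of CG found to CG expected from base composition had a median of 0.762 over the 28 detected members. Over the 39 members outside the Hox clusters below 1 TPM it was also 0.762, and over the 39 Hox genes 0.744. The 51 members with 0 counts had a median of 0.723, and 34 of them (66.7%) were at 0.6 or more. Among other protein-coding genes with 0 counts the median was 0.198 and 202 of 4401 (4.59%) reached 0.6, while those at 1 TPM or more had a median of 0.738 and 67.7% reached it. Where 0 counts in both tables was required, 23 of 32 members (71.9%) and 4.65% of other protein-coding genes reached 0.6. No test was made, as members of a family share ancestry and sequence.

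**Figure D3:**
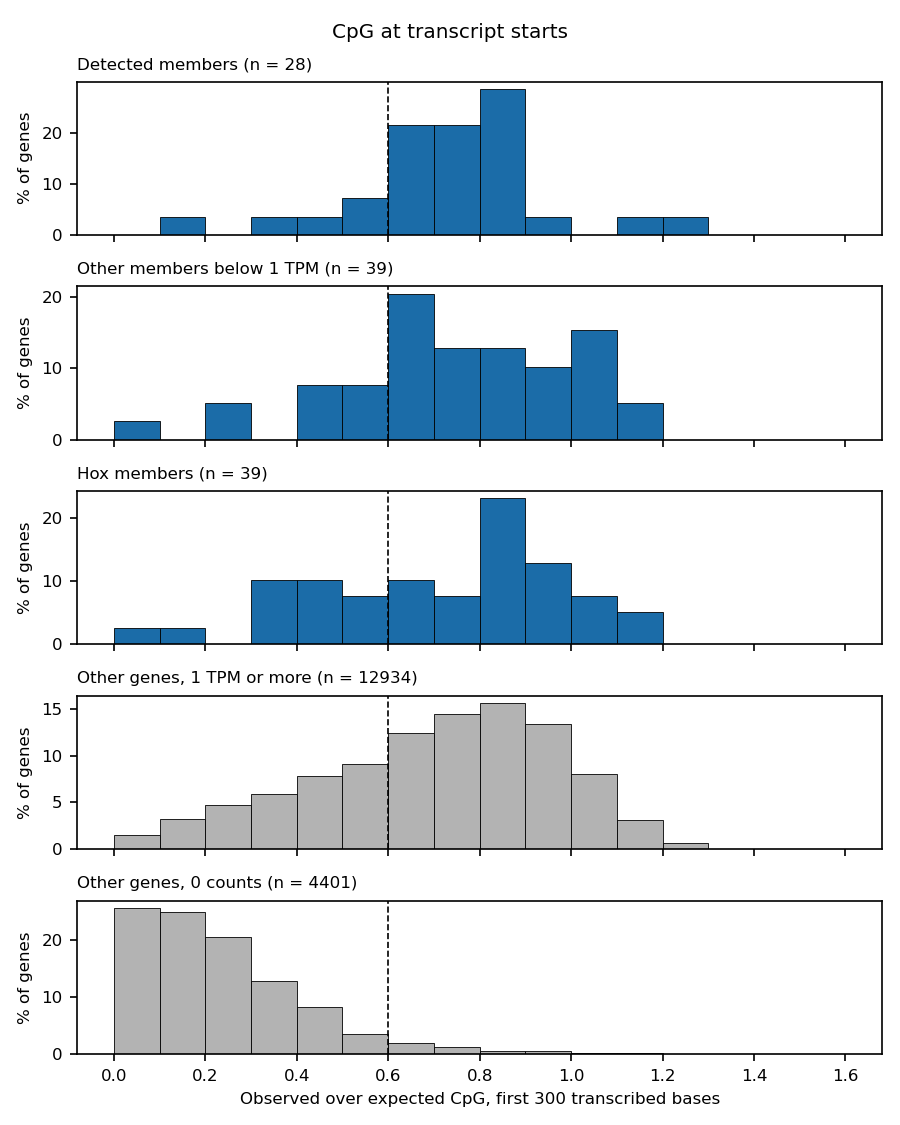
Share of genes (vertical axis, %) by the observed-over-expected CG ratio of the first 300 transcribed bases (horizontal axis), with 0.6 as the dashed line. The 3 sets of members (blue) peak above 0.6 whether detected or not, and the other protein-coding genes with 0 counts (lowest panel, grey) lie below it for all but 4.59%.

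The number of CG just before the start differed between members. The 150 bases before the RefSeq start on GRCm38.p6, plus strand, are given for the highly expressed Lhx2, for Hoxd1 with its 6 RSEM counts, and for Hoxd12. The Hox genes with 0 counts in both tables and a RefSeq stretch clear of their own GENCODE exons numbered 8, and Hoxd12 stands in the middle of them by its number of CG. Capitals mark each CG.
Lhx2 (chr2:38339131-38339280): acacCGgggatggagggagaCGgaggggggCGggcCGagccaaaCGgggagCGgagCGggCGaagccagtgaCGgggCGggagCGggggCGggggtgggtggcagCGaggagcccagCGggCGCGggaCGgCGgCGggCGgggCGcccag
Hoxd1 (chr2:74762830-74762979): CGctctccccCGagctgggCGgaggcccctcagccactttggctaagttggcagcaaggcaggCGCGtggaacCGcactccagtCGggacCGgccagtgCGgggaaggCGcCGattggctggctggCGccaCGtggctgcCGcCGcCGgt
Hoxd12 (chr2:74674863-74675012): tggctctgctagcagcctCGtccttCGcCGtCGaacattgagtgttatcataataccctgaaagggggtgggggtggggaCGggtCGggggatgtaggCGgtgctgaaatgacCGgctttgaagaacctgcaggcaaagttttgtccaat
Lhx2 holds 21 CG, Hoxd1 holds 16 and Hoxd12 holds 8. The stretch of Lhx2 adjoins the start of Lhx2-203 and not that of Lhx2-201. Over 20150 promoters of protein-coding genes in the same table the median was 7 in the same window, 89.4% held at least 1, and 18.1% held 16 or more. The 8 Hox genes ran between 2 and 19, and their median of 7 equals that of all promoters in the table. The RefSeq table held 70 of the 106 members, so no summary over all members is given.

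The transcript tables divide each gene's TPM between transcripts with and without the homeodomain core. Transcripts annotated for nonsense-mediated decay, a breakdown of the mRNA, count as coding here where they have a coding sequence. For most detected members, transcripts whose coding sequence includes the core held most of the gene's TPM: 89.3% ± 0.206 for Lhx2, 90.8% ± 3.48 for Lhx6 and 91.2% ± 2.46 for Dlx2 (SD, n = 2, RSEM). Cux1 was different. Coding transcripts without the core held 71.9% ± 3.19 of its TPM in the RSEM table and 70.4% ± 1.93 in the kallisto table, and those with the core held 24.2% ± 1.92 and 23.7% ± 1.27. This locus also encodes CASP, a Golgi membrane protein without DNA-binding domains. The leading transcript of Cux1, Cux1-211, has 2028 coding bases and no core, and held 46.1% of the TPM in replicate 1 and 41.3% in replicate 2. The longer Cux1-201, which has the core, held 14.7% ± 0.263 of the TPM, although it drew more reads, 628.43 and 724.79 expected counts against 415.12 and 439.55 for Cux1-211. Cux1-208, also without the core, is an annotated fragment that is coding over all of its 805 bases and held 13.5% ± 0.702. Cux2, in comparison, had 9.23% ± 0.947 in coding transcripts without the core and 50.2% ± 3.40 in those with it, by RSEM. The other 40.6% ± 2.45 lay in transcripts with no coding sequence, against 3.91% ± 1.27 for Cux1.

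**Figure D4:**
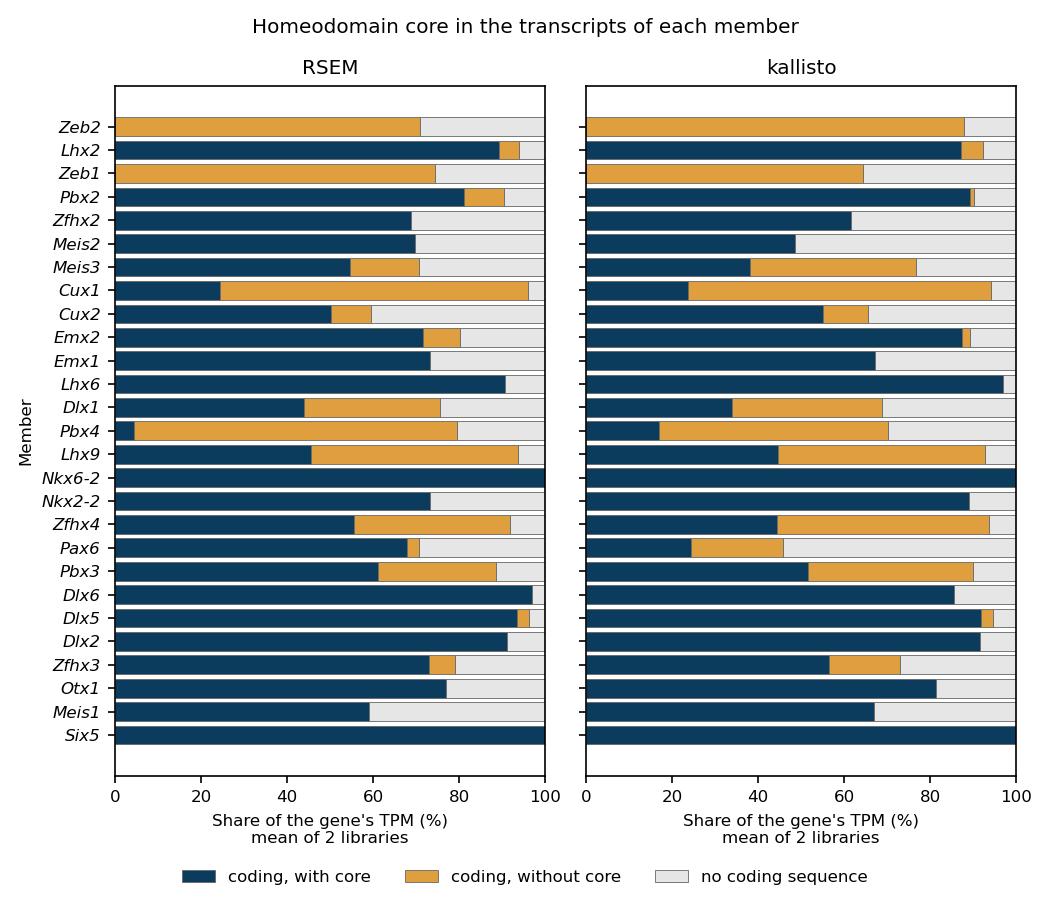
Share of each member's TPM for 27 of the 28 detected members (horizontal axis, %, mean of 2 libraries) in coding transcripts with the homeodomain core (dark blue), coding transcripts without it (orange) and transcripts with no coding sequence (grey), in the RSEM table (left) and the kallisto table (right). Cux1, Pbx4 and Lhx9 show large orange shares in both tables, with transcripts annotated for nonsense-mediated decay counted as coding. Zeb1 and Zeb2 lack the core in all transcripts.

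Lhx9 was divided nearly evenly. Coding transcripts without the core held 41.98% of its TPM in replicate 1 and 54.14% in replicate 2, and those with it 49.69% and 41.44%. The kallisto means were 48.2% ± 6.27 without and 44.6% ± 3.09 with the core. The leading transcript, Lhx9-201, lacks it, and held 47.7% ± 9.04. An Lhx9 isoform with a truncated homeodomain is known in the mouse. For Pbx4 the share without the core was 75.1% ± 0.291 by RSEM and 53.5% ± 21.1 by kallisto, but the whole gene rested on 73 and 94 counts. By RSEM this share was mainly the 375-base Pbx4-202 with 28.9%, and Pbx4-205 and Pbx4-204 with 22.3% and 20.3%. The latter are annotated for nonsense-mediated decay, so the share does not stand for a protein without the core. Dlx1, Zfhx4 and Pbx3 also had shares without the core in the RSEM table: 28.42% in replicate 1 and 35.22% in replicate 2 for Dlx1, 27.82% and 44.78% for Zfhx4, and 28.08% and 26.85% for Pbx3. For Zfhx4 this was 1 short transcript, Zfhx4-204, with 9.41 and 18.75 of the gene's 694 and 656 counts. For Dlx1 and Pbx3, transcripts annotated for nonsense-mediated decay held part of that share, Dlx1-204 with 15.0% and Pbx3-207 with 17.0% of the gene's TPM. The tables differed most for Pax6, where transcripts with the core held 67.9% ± 3.53 by RSEM and 24.4% ± 1.24 by kallisto, and where the gene's TPM was 3.45 times as high in the kallisto table against a median of 1.59 times over the 28 detected members.

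Among the 11 members at 10 TPM or more, 5 had a transcript with at least 50% of the gene's TPM, among them Lhx2-201 with 68.2% ± 2.36, Zfhx2-201 with 68.7% ± 4.57, Emx2-201 with 71.5% ± 4.58 and Pbx2-201 with 57.2% ± 0.0628. Second transcripts were Lhx2-203 with 21.1%, Zfhx2-204 with 12.3%, Emx2-203 with 19.8% and Pbx2-203 with 19.2%. Zeb1 was led by Zeb1-201 at 36.1% ± 1.54, ahead of Zeb1-206 at 16.4% ± 5.29. Meis3-201 held 39.6% ± 9.08 and Meis3-205 held 15.1% ± 5.63. Meis2 was spread over Meis2-202 with 23.5% and Meis2-203 with 22.0%, and Cux2 over Cux2-202 with 20.6% and Cux2-210 with 20.2%. The tables disagreed on the leading transcript of Meis3, Meis2, Cux2 and Zeb2. By kallisto mean, Meis3-204 led with 24.8%, the non-coding Meis2-216 with 18.9% and Cux2-201 with 32.2%, while Cux2-210 held 2.69%. For Zeb2, with 29 annotated transcripts, the 584-base non-coding Zeb2-229 led by RSEM with 20.4% ± 0.237, ahead of the coding Zeb2-212 with 18.3% ± 0.149. Zeb2-229 was at 0 in the kallisto table.

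Between the replicates, of 34 members with a mean count of at least 10, 1 was over 2-fold apart. At that count 159 of 14582 protein-coding genes and 5.13% of all 18255 genes were. On TMM-scaled counts, the log2 ratio (replicate 1 over replicate 2) had a median of -0.03 over these members. It was -0.04 over protein-coding genes and -0.01 over all genes. Otx2 was the exception with a log2 ratio of 1.03, on 13 counts in replicate 1 and 7 in replicate 2, and its ratio was 0.27 in the kallisto table. Among detected members the ratio ran between -0.33 for Dlx1 and 0.35 for Otx1.

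With TMM scaling 20 of the 34 members were lower in replicate 1. So were 8624 of 14582 protein-coding genes and 9606 of 18255 of all genes with a mean count of at least 10, a similar share. Interneuron genes were among the 20 members: the log2 ratio was -0.70 for Nkx2-1, -0.33 for Dlx1, -0.24 for Lhx6, -0.19 for Dlx2, and -0.17 for both Dlx5 and Dlx6. All 7 interneuron markers also had ratios below 0, between -0.71 for Vip and -0.15 for Gad1, and their summed level was 473.29 TPM in replicate 1 and 529.15 TPM in replicate 2. The direction was not limited to interneuron genes, as Nkx6-2 was at -0.31, Pbx4 at -0.17, Emx1 at -0.16 and Pbx2 at -0.15. Ratios below 0 were also found for 5 of 6 oligodendrocyte markers, 6 of 8 choroid plexus markers and 4 of 8 markers of pyramidal and granule neurons. With spike-in scaling, where the median of all genes was 0.19, Dlx2, Dlx5 and Dlx6 changed sign to 0.02, 0.04 and 0.03 and Lhx6 was at -0.03, while Dlx6 was at 0.08 on kallisto counts. The part of interneuron content in these values was not tested. The 3 Zfhx genes were higher in replicate 1, at 0.34, 0.31 and 0.27 for Zfhx2, Zfhx3 and Zfhx4, and at 0.54, 0.52 and 0.48 with spike-in scaling.

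**Figure D5:**
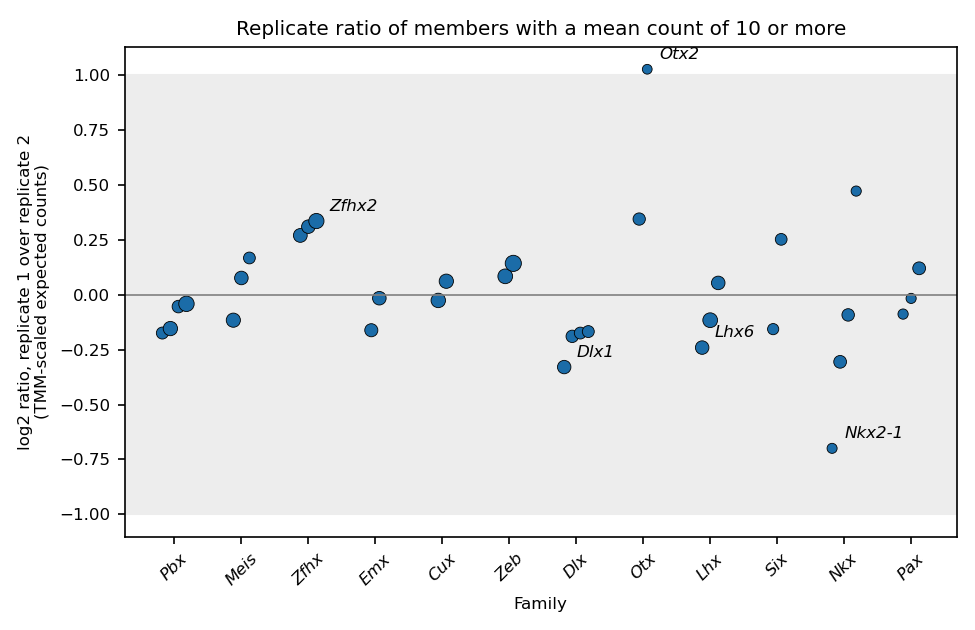
Log2 ratio of replicate 1 over replicate 2 (vertical axis, TMM-scaled expected counts) of the 34 members with a mean count of at least 10, by family (horizontal axis). Point size grows with the mean count and the grey band marks ratios within 2-fold; Otx2 at 1.03 is the point outside it, and the 4 Dlx genes lie below 0 with this scaling, whereas Dlx2, Dlx5 and Dlx6 are between 0.02 and 0.04 with spike-in scaling.

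Several members have an RNA annotated on the opposite strand, and 5 of 23 such RNAs, counting those of the Hox clusters, were at 1 TPM or more. Dlx1as had 10.01 and 9.32 TPM and Dlx6os1, known as Evf2, had 8.63 and 8.73 TPM. Both exceeded the mean of their partner genes, 7.49 TPM for Dlx1 and 3.11 TPM for Dlx6. Zfhx2os had 6.69 and 4.90 TPM with a log2 ratio of 0.70, Zeb2os had 2.77 and 2.69 TPM and Emx2os had 1.75 and 1.50 TPM. The strand setting of the counting is not given in the sources used here, so reads in shared exons may belong to either partner. Of the 28 detected members, 10 shared exon bases with a gene on the opposite strand and 18 shared none. The shared part was 17.9% of exon bases for Zfhx2, 12.9% for Nkx6-2, whose partner is Inpp5a, 9.67% for Nkx2-2, 8.79% for Emx2, 8.51% for Meis1, 6.21% for Dlx1, 4.38% for Dlx6 and 3.27% for Zeb2, with Cux1 and Zeb1 at 1.97% and 1.93%.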

How the data were processed

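Per the labels, the 2 libraries were total RNA-seq of hippocampal tissue with ERCC spike-ins, mapped to mm10. Per the notes deposited with the samples, genes follow GENCODE M21. Per the file headers, the table of genes and 1 of the transcript tables hold RSEM's expected counts and TPM, derived from a transcriptome alignment, and the other transcript table holds kallisto's estimated counts and TPM, derived from the reads. The deposited TPM have the same sum over all rows in each library, spike-ins included. Not given in the sources used here are the aligner, program versions and strand setting; reads of the CAST/EiJ allele were, per the labels, referred to mm10, whose effect was not tested. Rows naming no gene held 6 and 2 counts and stayed out with the spike-ins.

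Symbols came from the GENCODE M21 annotation and matched those of the kallisto identifiers for the genes found in both. Each level is a mean TPM with its SD (n = 2). Replicate ratios used rounded expected counts with TMM scaling in edgeR 4.0.16 (R 4.3.3, prior count 0.5), tested on simulated data, with DESeq2 1.42.0 size factors as an alternative. Neighbours in the order were called apart when replicate ranges did not overlap. Homeodomain cores were sought in translated GENCODE M21 coding sequences. Python 3.11.15, pandas 2.3.3 and matplotlib 3.10.9 did the rest. No p-values are given. The members, lists, pairs and the rule for named genes (members at 1 TPM or more, the highest of each family, members with 0 counts, members over 2-fold apart, 21 pairs, the 2 leading transcripts of members at 10 TPM or more and the 3 highest of each list) were chosen with earlier results of these data known. Other low members, other markers, the isoform cases, the Hox genes with kallisto counts and the promoter stretches were named after their values were seen, and some list and marker genes are given as counts only. Some genes and sequences are not reported here.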

Additional observations from a re-analysis of the deposited data

How the results depend on the processing

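The number of detected members was 28 at a minimum of 0.5 TPM, 24 at 2 TPM, 29 with kallisto TPM, where Nkx2-1 passes, 29 with TPM scaled over protein-coding nuclear genes and 34 by a mean count of 10, and between 26 and 28 with each replicate left out. Without replicate 1, Meis1 and Six5 fell under 1 TPM. Members over 2-fold apart numbered 0 with deposited TPM plus 0.5, kallisto counts, a minimum of 100 counts or a prior count of 2. Otx2 no longer passed there. Over all genes these settings gave 224 of 18255, 878 of 18255, 99 of 12719 and 824 of 18255. With no count minimum, 15 of 55 members were apart, beside 6540 of 27847 genes, a similar share. With spike-in scaling the median log2 ratio was 0.17 over members and 0.19 over all genes, so the shift was not particular to members. The share of the 5 highest was 63.6% with kallisto TPM and ran between 65.3% and 66.9% with each replicate left out. Members led by a transcript with at least 50% numbered 4 of 11 by kallisto, 5 with each replicate left out, 0 at 80%, and 13 of 28 from 1 TPM up. The log2 ratio of Dlx5 over Dlx6 was -0.19 on TPM and reversed to 0.10 on expected counts, which are not per length. Kallisto TPM exceeded RSEM TPM in all 28 detected members, at a median of 1.59 times. The median was 1.57 times over the 12977 protein-coding genes at 1 TPM or more, so this was not particular to members. The deposited interval of the TPM held the deposited value in both libraries for 25 of 28 detected members, not for Meis2, Pax6 and Pbx3. No paired analysis was possible because the series has 1 group. A count of 0 allows up to 3 counts, and this limit covers counting error within 1 table only. With 0 counts required in both tables, an alternative chosen after seeing the data, 32 members and 22 Hox genes had none, in place of 51 and 35.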
